A study of Mus musculus with 2 samples.

Results

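Among the cells that the authors named bipolar cells (BC), cluster 18 was the largest of the clusters numbered above 13. It held 374 of the 5743 BC, which in turn were part of 30943 deposited cells. The cells were taken by their deposited name and cluster number alone, and every cell of cluster 18 carried the name BC. The other 9 BC clusters, numbered 5, 9, 10, 11, 12, 13, 19, 20 and 21, held between 199 and 1461 cells. Judged by markers, cluster 18 was an OFF cone bipolar cluster and is called type 3B-like below, with the exceptions given beside the markers.

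The retinas came from 30-day-old mice, 1 Ptbp1-Ctrl animal (Chx10-Cre) and 1 Ptbp1-KO animal (Chx10-Cre;Ptbp1lox/lox). Both carried the Chx10-Cre transgene, which drives Cre recombinase in retinal progenitors, and in Ptbp1-KO the cells descending from them lose the floxed promoter and first exon of Ptbp1. Whole retinas were dissociated with papain and 1 droplet library (10x Genomics 3′) was made per genotype, so cluster 18 was compared between 2 libraries and no difference between genotypes has a replicate check. Genotype, animal, dissociation and library cannot be told apart.

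Bipolar cells carry the signal of photoreceptors to the inner retina. ON bipolar cells hyperpolarize to glutamate through the metabotropic receptor mGluR6 (Grm6), which closes the channel Trpm1, whereas OFF bipolar cells depolarize to glutamate through ionotropic receptors of the kainate and AMPA classes. Cone bipolar cells fall into several types that differ in their adhesion molecules, channels and transcription factors and end in different layers of the inner plexiform layer, and rod bipolar cells form a type of their own.

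Cluster 18 contributed 212 Ptbp1-Ctrl cells with 603732 unique molecular identifiers (UMIs) and 162 Ptbp1-KO cells with 595269 UMIs. The median Ptbp1-Ctrl cell of the cluster held 2675.5 UMIs from 1638 genes, and the median Ptbp1-KO cell 3363 UMIs from 1927.5 genes. Mitochondrial genes took a median of 2.56% and 2.50% of the UMIs. Of all deposited cell barcodes, 63 occurred in both libraries, none of them in cluster 18. Scrublet's doublet score lay above the 90th percentile of its library for 33 of the 212 and 16 of the 162 cells. UMIs were summed over the cells of a cluster in each library, and a gene's level is its CPM, its part of 1000000 such UMIs. All intervals are 95% intervals that cover counting error only, and a fold is written as a log2 ratio of 2 CPM values. Where values are given as a pair, the first is Ptbp1-Ctrl and the second Ptbp1-KO.

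Cluster 18 made up 6.64% of the BC in Ptbp1-Ctrl (212 of 3194, exact binomial interval 5.80 to 7.56%) and 6.36% in Ptbp1-KO (162 of 2549, 5.44 to 7.37%). The ratio of the shares was 0.958 with an interval of 0.786 to 1.17. The share of the cluster thus differed between the libraries by less than counting error.

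Ptbp1, which encodes the RNA-binding protein targeted in this study, was low in this cluster already in Ptbp1-Ctrl. There were 13 UMIs of Ptbp1 in 13 of the 212 Ptbp1-Ctrl cells (6.13%), or 21.5 CPM, and 0 of the 162 Ptbp1-KO cells held one, which allows a share of cells with a UMI of up to 1.85% (3 counts). The share in rods, which are shallower, was 2.50% and 0.0323%. The other BC went from 20.8 to 0.104 CPM of Ptbp1. The floxed part lies at the 5′ end of the gene and the libraries read the 3′ end, so the UMIs of Ptbp1 do not read the deleted part itself. Ptbp2, its neuronal paralog, was at 234 and 247 CPM (141 and 147 UMIs), a log2 ratio of 0.08 (interval -0.26 to 0.42).

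The glutamate receptor genes placed cluster 18 on the OFF side. Grik1, which encodes the kainate receptor subunit GluK1 of OFF bipolar cells, stood at 10235 and 10232 CPM. The next cluster, number 9, had 3605 and 3086 CPM of Grik1. Every cell of cluster 18 held a Grik1 UMI in both libraries, against 29.7% and 28.5% of the other BC and 2.11% and 2.53% of the rods, whose median depth was 1088 and 1288 UMIs. Fezf2, a transcription factor known from OFF cone bipolar cells, was at 134 and 161 CPM, the highest of the 10 clusters in both libraries. The ON genes were at their lowest here: Grm6 was at 17 and 18 CPM and Isl1, a transcription factor of ON bipolar cells, at 22 and 24 CPM. Trpm1 stood at 131 and 163 CPM, close to cluster 13 (145 and 163 CPM) and below the rest.

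Summed over the list of 13 ON genes, cluster 18 had 1731 and 1705 CPM, and the other BC clusters ranged from 4205 to 18952 CPM in Ptbp1-Ctrl and from 4249 to 20384 CPM in Ptbp1-KO. The list of 7 OFF genes summed to 10679 and 10820.3 CPM, and the highest other cluster reached 5150.5 and 4893 CPM. The OFF sum was nearly all Grik1. Neto1, an auxiliary subunit of kainate receptors, was at 20 and 27 CPM in cluster 18 and at 856 and 963 CPM in cluster 9, which also held more Tacr3 (347 and 391 CPM, against 5 and 3 CPM in cluster 18) and more Lhx3. Rod bipolar genes were close to absent, with Prkca at 119 and 156 CPM against 7011 and 6644 CPM in cluster 5, and Sebox, Car8 and Vstm2b under 14 CPM in both libraries.

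The bipolar transcription factor Otx2 was present at 404 and 534 CPM, within the range of the other clusters. Of the markers listed for the cluster, Scgn (secretagogin, a calcium-binding protein of cone bipolar cells) was present at 447 and 462 CPM. Vsx1, a homeobox gene of several cone bipolar types, went against the label, with no UMI in Ptbp1-Ctrl and 12 CPM in the other library, while cluster 19 had 602 and 630 CPM. The type 3B markers Nnat (neuronatin) and Prkar2b (a regulatory subunit of protein kinase A) were highest in cluster 18. Nnat stood at 436 and 447 CPM, against at most 112 and 87 CPM elsewhere, and Prkar2b at 164 and 218 CPM, against at most 45 and 54 CPM. Nnat is also listed for type 1, whose markers Tacr3 (5 and 3 CPM) and Lhx3 (2 CPM in both) were nearly absent, with Pcdh17 at 116 and 77 CPM and Pcdh10 at 53 and 52 CPM. The remaining type 3B marker, Irx6, was at 2 CPM in Ptbp1-Ctrl and 0 in Ptbp1-KO. Erbb4, a marker of type 3A, was at 136 and 235 CPM here and at 1196 and 1261 CPM in cluster 9. The name type 3B-like therefore rests on 3 of 4 markers, Nnat, Prkar2b and Grik1, of which Grik1 is also listed for types 3A and 4, so that Prkar2b alone is listed for no other type. Col11a1, a marker of type 4, was also highest in cluster 18 at 99 and 60 CPM, but the type 4 markers Kcnip3 (17 and 12 CPM) and Vsx1 were low. Both libraries showed the same pattern, as the heat map of subtype markers shows.

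**Figure D1:**
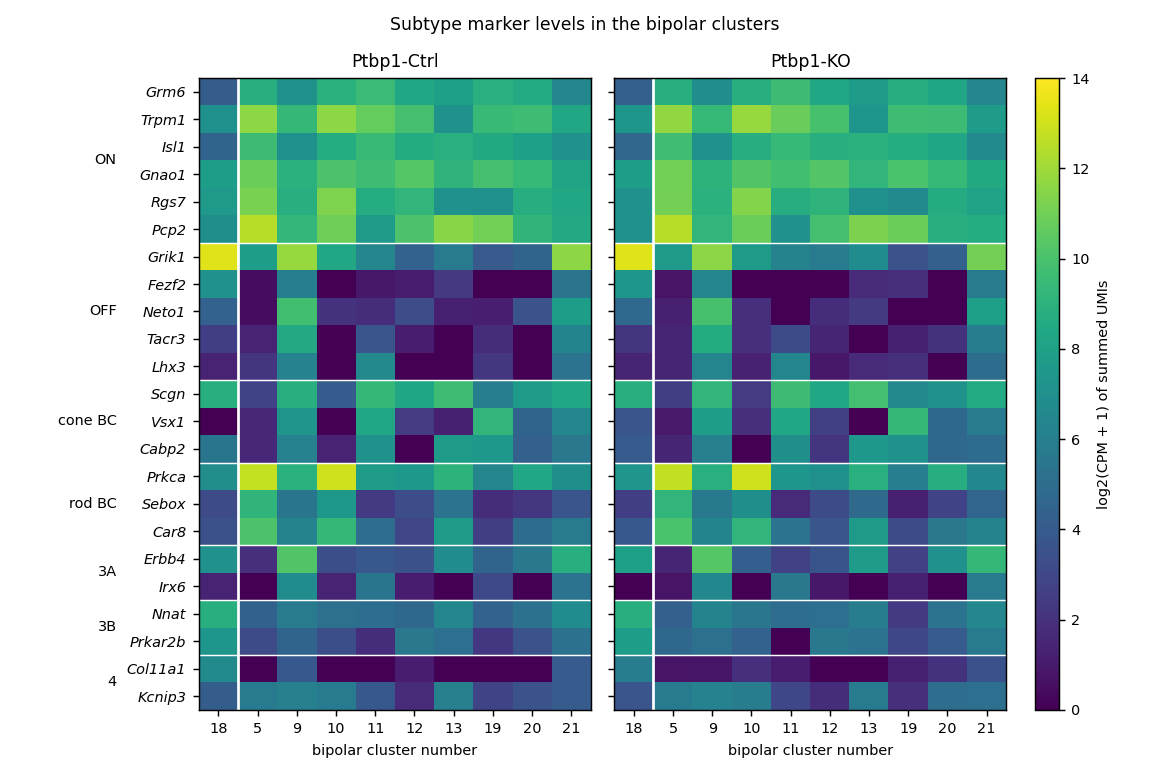
Levels of ON, OFF, cone bipolar, rod bipolar and type 3A, 3B and 4 markers as log2(CPM + 1) of summed UMIs, by gene (vertical axis) and BC cluster (horizontal axis, cluster 18 first), in Ptbp1-Ctrl (left) and Ptbp1-KO (right). Grik1 peaks in cluster 18 at 10235 and 10232 CPM, Nnat and Prkar2b are highest there, and Grm6 and Isl1 are lowest there.

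Markers of other cell types in cluster 18 were counted as well. The 7 rod markers, all detected, summed to 6246 and 5619 CPM, within the range of the other BC clusters (4822 to 13826 and 4139 to 11379 CPM) and far under rods (44341 and 39838 CPM). The 6 cone markers summed to 1285 and 1456 CPM, of which Gngt2, a cone transducin gamma subunit, gave 782 and 911 CPM, while Arr3 was at 65 and 52 CPM. Only cluster 21 had more Gngt2 (2229 and 2770 CPM), and it held 3921 and 4030 CPM of Arr3. The 6 Müller glia markers summed to 283 and 329 CPM, above every other BC cluster (185 to 248 and 145 to 251 CPM). Sox9 gave 147 and 160 CPM and Glul 101 and 136 CPM of this sum, with Aqp4, Slc1a3 and Rlbp1 each under 7 CPM. Lists for amacrine, ganglion, horizontal, microglial, endothelial and red blood cells each summed to under 29 CPM in both libraries. What part the RNA of other cells has in the levels below was not tested.

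Against the 9 other BC clusters summed, 154 of 3971 genes (3.88%) were at least 2-fold higher in cluster 18 in both libraries and 199 (5.01%) at least 2-fold lower. The clusters were made from these genes, so the values describe the cluster and were not tested. The median log2 ratio over the 3971 genes was 0.003 and 0.02. Each of the 20 leading genes was highest in cluster 18 among the 10 clusters in both libraries. Kcnip4, a calcium-binding partner of Kv4 potassium channels, was the most abundant of them at 12348 and 12611 CPM, against 695 and 583 CPM in the other BC together. Nrxn3, a presynaptic neurexin, was about as abundant (12757 and 12247 CPM) but was also high in the other BC, at 11366 CPM in Ptbp1-Ctrl.

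The largest ratios among the leading genes belonged to less abundant transcripts. Gng2, a G protein gamma subunit, was at 121 and 134 CPM against 4.14 and 3.32 CPM, log2 ratios of 4.87 and 5.34. Tafa4, a secreted chemokine-like protein, was at 215 and 144 CPM against 8.17 and 4.46 CPM. Mrvi1, Ror1 (a Wnt receptor) and the predicted gene Gm32509 followed with log2 ratios between 4.31 and 5.17. Otor, which encodes a small secreted protein, was at 646 and 485 CPM, and its level stayed under 9 CPM in rods, cones, amacrine cells and Müller glia of both libraries. Among adhesion molecules, Lrrtm3 (845 and 544 CPM), Ctnna3 (alpha-T-catenin, 792 and 373 CPM) and Dscam (1469 and 1376 CPM) led. Slc16a7, a monocarboxylate transporter, stood at 616 and 494 CPM against 41.6 and 41.5 CPM.

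**Figure D2:**
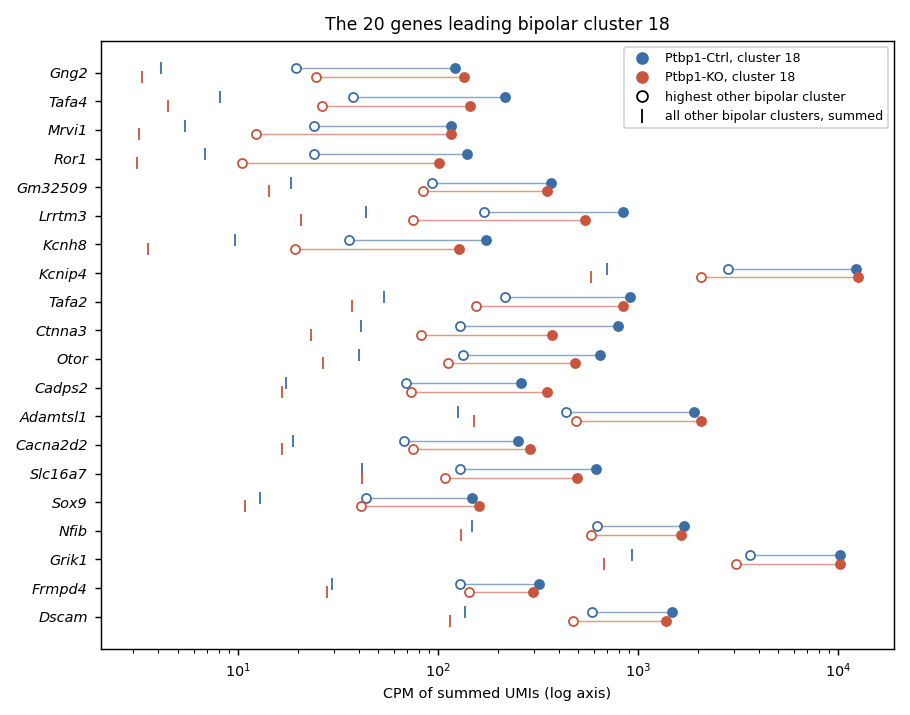
Levels (CPM of summed UMIs, log axis) of the 20 genes leading cluster 18 (vertical axis) in Ptbp1-Ctrl (blue) and Ptbp1-KO (red). Filled points are cluster 18, open points the highest other BC cluster and ticks all other BC clusters summed, and for all 20 genes the filled point lies to the right of both. Kcnip4 and Grik1 exceed 10000 CPM.

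Of 27 transcription factors with enough UMIs, 5 were at least 2-fold higher in both libraries (Lhx4, Fezf2, Nfib, Sox6 and Meis2), beside 3.88% of all genes, and 10 at least 2-fold lower, beside 5.01%, among them Isl1, Vsx1, Bhlhe23, Prdm8, St18 and Ebf1. Nfib, a nuclear factor I gene, was at 1691 and 1641 CPM, with the next cluster, 13, at 625 and 582 CPM. Lhx4 was at 475 and 512 CPM, and Sox6 at 672 and 722 CPM, for which clusters 12 and 20 were higher. Sox9, best known in the retina from Müller glia, was among the leading genes at 147 and 160 CPM, against 583 and 493 CPM in cells named Müller glia and at most 43 and 41 CPM in another BC cluster. Of the other Müller glia genes, Glul, encoding glutamine synthetase, was at 101 and 136 CPM and was not past 2-fold, and Apoe was at 22 CPM in both libraries.

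Of 13 sodium and calcium channel genes compared, 4, all calcium channel subunits, were at least 2-fold higher and none lower, beside 3.88% and 5.01% of all genes. They were Cacna2d2 (252 and 289 CPM against 18.7 and 16.5 CPM) and Cacna2d1 (1915 and 1924 CPM), both auxiliary subunits, and Cacna1g (142 and 129 CPM) and Cacna1h (222 and 279 CPM), which encode T-type channels. The median log2 ratio over this list was 0.86 in Ptbp1-Ctrl and 0.79 in Ptbp1-KO. None of 17 ribbon synapse and release genes was past 2-fold, and their medians were 0.09 and 0.13. Ctbp2, which encodes the ribbon protein Ribeye, was highest here of the 10 clusters at 186 and 180 CPM, by log2 ratios of 0.40 and 0.36.

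The lists of receptors and adhesion molecules are to be read beside the same shares of all genes, 3.88% higher and 5.01% lower. Of 11 ionotropic glutamate receptor genes, Grik1 and Cacng2 (an AMPA receptor auxiliary subunit, 152 and 99 CPM against 16.3 CPM in the other BC of Ptbp1-Ctrl) were higher, and Neto1 was among the genes that were lower. Gria1, an AMPA receptor subunit, was highest in cluster 18 at 272 and 390 CPM. Of 12 mGluR6 cascade genes, 9 were lower and none higher, with medians of -2.16 and -2.26. Among 31 genes of synaptic adhesion and guidance, 9 were higher and 12 lower: Nlgn1 (1807 and 1572 CPM), Lrrc4c (2670 and 2313 CPM), Slitrk6 (593 and 748 CPM), Epha3 and Cntnap5a were on the high side, and Cntn5, Sdk1, Ntng1 and Tenm2 on the low side. Of 12 cadherins and protocadherins, Cdh11 and Pcdh7 were higher, and Cdh8, Cdh9, Cdh10, Cdh12 and Cdh18 were lower. Chrm3, a muscarinic acetylcholine receptor, was at 1216 and 1213 CPM against 267 and 239 CPM, a level that cluster 19 matched (1238 and 1129 CPM). Grm5, a metabotropic glutamate receptor, was lower in cluster 18 (53.0 and 40.3 CPM) than in any other BC cluster. Kcnd3, the Kv4.3 channel that Kcnip4 binds, was also higher at 494 and 408 CPM against 70.7 CPM in the other BC of Ptbp1-Ctrl.

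The 10 genes lowest in cluster 18 against the other BC included Vstm2b and Car8 of the rod bipolar list. Asic2, an acid-sensing ion channel, was at 16.6 and 10.1 CPM against 1033 and 1111 CPM in the other BC. Chst9, a sulfotransferase, was at 4.97 and 3.36 CPM against 356 and 351 CPM. Hs3st4, a heparan sulfate sulfotransferase, had 0 UMIs in Ptbp1-Ctrl, which makes it at least 78.8-fold lower there against a floor of 3 counts in the cluster, and 8.40 CPM in Ptbp1-KO. Gm30725, 5730419F03Rik, Adrb1 (the beta-1 adrenergic receptor) and Qpct were also among them.

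Several of the genes lower in cluster 18 were abundant in other BC clusters. Cntn5, a contactin, was at 176 and 222 CPM here and at 7835 CPM in cluster 20 of Ptbp1-Ctrl. Kcnb2, a Kv2 channel subunit, was at 154 and 153 CPM against 1103 and 1130.3 CPM in the other BC together. Cdh9, a cadherin, was at 14.9 and 15.1 CPM against 303 and 286 CPM. None of the 10 GABA and glycine receptor genes compared was at least 2-fold higher, and Gabrb1 was lower, beside 3.88% and 5.01% of all genes.

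The BC cluster most like cluster 18 was number 21, with a Pearson r of 0.811 over 4196 genes on log2(CPM + 1), followed by cluster 9 at 0.799. The correlation runs across genes, which are not independent, and describes these sums. Cluster 21 was the deepest BC cluster, with a median of 5432.5 and 7191 UMIs per cell. What part depth has in its likeness, or RNA of cones in its cone genes, was not tested. Against cluster 21, 139 of 3952 genes (3.52%) were at least 2-fold higher in both libraries and 190 (4.81%) lower. The 10 lowest were led by cone genes: Opn1mw was at 8.28 and 13.4 CPM in cluster 18 and 1903 and 1714 CPM in cluster 21, and Arr3, Pde6h, Opn1sw and Pde6c followed it. On the high side stood largely the leading genes above (Ror1, Frmpd4, Tafa4, Gng2, Lrrtm3, Kcnh8, Mrvi1, Slc16a7 and Ctnna3), joined by Sgcz, a sarcoglycan, at 772 and 675 CPM against 151 and 114 CPM.

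Cells of cluster 18 differed among themselves in Nnat and Col11a1. A Col11a1 UMI was present in 36 of 212 Ptbp1-Ctrl cells (16.98%, interval 12.2 to 22.7%) and in 13 of 162 Ptbp1-KO cells (8.02%, 4.34 to 13.3%), against 0.704% and 0.419% of the other BC and 0.0994% and 0.333% of rods. After thinning each cell to 1000 UMIs, which left out 12 and 3 cells, the shares in the cluster were 10.5% and 2.52%. Nnat was largely missing from these cells: 7 of 36 (19.4%, 8.19 to 36.0%) held a Nnat UMI in Ptbp1-Ctrl, against 108 of 176 (61.4%, 53.7 to 68.6%) of the cells without Col11a1. In Ptbp1-KO the figures were 4 of 13 (30.8%, 9.09 to 61.4%) and 107 of 149 (71.8%, 63.9 to 78.9%). The median depth was 2806 and 4408 UMIs in cells with a Col11a1 UMI and 2871.5 and 3439 UMIs in cells with Nnat and no Col11a1.

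Cells with a Col11a1 UMI were set beside cells with a Nnat UMI and no Col11a1 UMI over 3479 genes, of which 59 were at least 2-fold higher and 46 at least 2-fold lower in both libraries. The cells were chosen by their own counts of these 2 genes, and the values are a description. Tenm4, a teneurin adhesion molecule, was at 261 and 194 CPM in the Col11a1 cells and at 21.3 and 14.97 CPM in the Nnat cells. Cdh12, a cadherin, was at 405 and 343 CPM against 33.5 and 17.5 CPM. Zfhx3, a homeobox transcription factor, was at 784 and 508 CPM against 79.2 and 29.9 CPM. Tafa1, Lama2, Ptprm, Grin2b (an NMDA receptor subunit), Tenm1, Pcdh17, Pcdh10 and Erbb4 were higher in the same cells. The cone markers went both ways. Arr3 (185 and 313 CPM against 15.2 and 14.97 CPM) and Opn1sw were higher, and Pde6h had log2 ratios of 0.92 (-0.22 to 2.01) and 4.12. Gngt2 was lower (430 and 687 CPM against 954 and 995 CPM), as was Gnat2 (135 and 179 CPM against 253 and 289 CPM).

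The Nnat cells were richer in a different set. Cabp5, a calcium-binding protein of bipolar cells, was at 838 and 868 CPM in them and at 160 and 179 CPM in the Col11a1 cells. Prkar2b was at 232 and 284 CPM against 50.6 and 44.8 CPM. Sgcz, Sulf1, Pde1a, Cacna2d2, Epha7, Kirrel3 and the transcription factors Six3 and Meis2 went the same way. Of the 20 leading genes of the cluster, Tafa4, Ror1 and Kcnh8 were at least 2-fold higher in the Col11a1 cells and Cacna2d2 at least 2-fold lower. The plot of cells grouped by Col11a1 and Nnat shows 20 of these genes in both libraries.

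**Figure D3:**
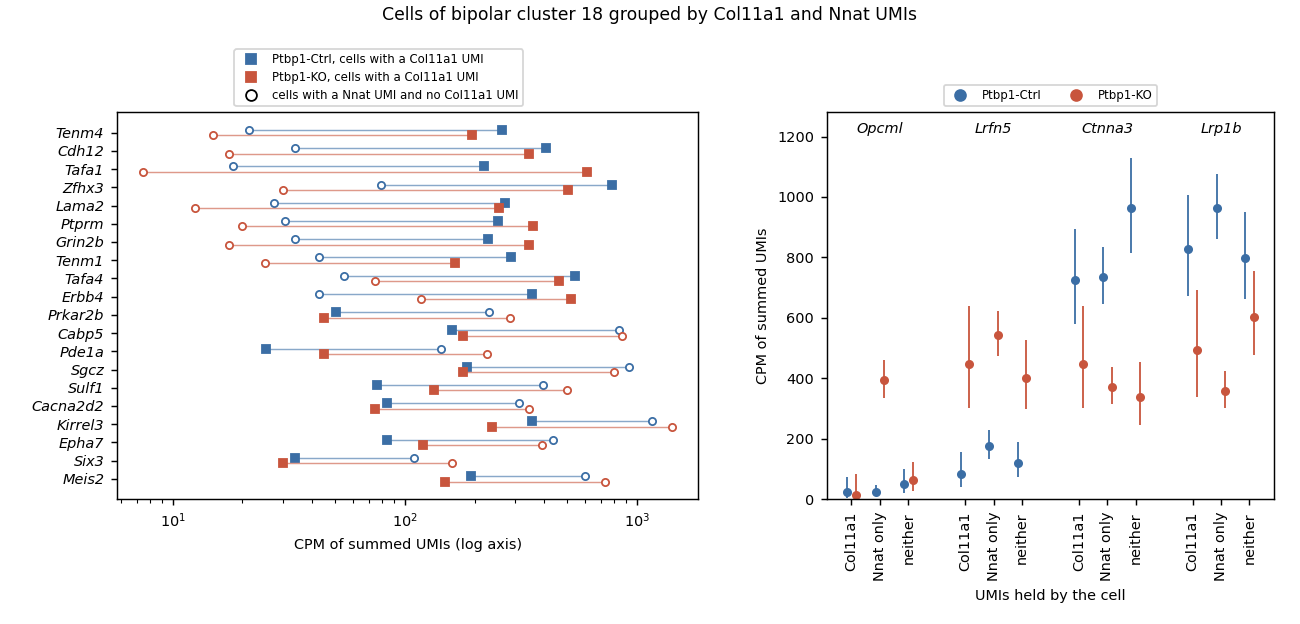
Left, levels (CPM, log axis) of 20 genes in cells of cluster 18 with a Col11a1 UMI (squares) and with a Nnat UMI but no Col11a1 UMI (open circles), in Ptbp1-Ctrl (blue) and Ptbp1-KO (red); the upper 10 genes are higher in the Col11a1 cells and the lower 10 in the Nnat cells. Right, CPM with exact Poisson 95% intervals of Opcml, Lrfn5, Ctnna3 and Lrp1b in 3 classes of cells of the cluster, where Opcml reaches 394 CPM in the Nnat cells of Ptbp1-KO and stays at or under 63 CPM in the rest.

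Between the libraries, cluster 18 was largely alike. Of 4159 genes with a mean of at least 50 CPM and at least 50 UMIs, 19 (0.457%) were at least 2-fold higher in Ptbp1-KO and 21 (0.505%) at least 2-fold lower, 40 (0.962%) in all. The median log2 ratio over all 4159 genes was 0.004, and 5% and 95% of genes lay below -0.54 and 0.52. The counts depend on the filter and on which cells are kept, and they ranged from 2 to 209 higher and from 7 to 170 lower over the settings tried. The other BC come from the same 2 libraries, and their ratios are given beside those of cluster 18. They pool 9 clusters whose shares differed between the libraries, such as cluster 11 with 13.2% and 9.38% of the BC. What part this mix of clusters has in their ratios was not tested. Without the cell that held most UMIs of a gene in each library, 38 of the 40 remained past 2-fold, the exceptions being Dpp10 and Cdon.

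Opcml had the highest ratio of Ptbp1-KO to Ptbp1-Ctrl. This gene, which encodes a glycosylphosphatidylinositol-anchored cell adhesion protein (chromosome 9, 27790775 to 28925410, mm10), had 19 UMIs in 11 Ptbp1-Ctrl cells (31.5 CPM) and 167 UMIs in 41 Ptbp1-KO cells (281 CPM). The log2 ratio was 3.16 (interval 2.47 to 3.92). Without the cell that held most Opcml UMIs in each library it was 3.30, and over all settings it ranged from 2.98 to 3.93. In the other BC, Opcml went from 6.97 to 12.8 CPM, a log2 ratio of 0.87 (0.42 to 1.33), and the difference of the ratios had a counting interval of 1.47 to 3.10. A UMI of Opcml was found in 5.19% and 25.3% of the cluster's cells, against 0.716% and 1.81% of rods, and at 1000 UMIs per cell in 2.50% and 13.8%. Within the cluster the Ptbp1-KO UMIs lay in the Nnat cells: 158 of 167, at 394 CPM against 24.4 CPM in the Nnat cells of Ptbp1-Ctrl, while Col11a1 cells had 25.3 and 14.9 CPM.

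Lrfn5, a synaptic adhesion molecule (chromosome 12, 61523150 to 61858342), differed in a larger number of cells. It had 87 UMIs in 51 Ptbp1-Ctrl cells (144 CPM) and 299 UMIs in 95 Ptbp1-KO cells (502 CPM), a log2 ratio of 1.80 (1.45 to 2.16) that stayed between 1.68 and 2.02 over all settings. In the other BC it was at 15.7 and 21.98 CPM, a ratio of 0.49 (0.18 to 0.80). Cluster 18 had the highest Lrfn5 of the 10 BC clusters in both libraries. It was higher in Ptbp1-KO in all 3 classes of cells, going from 84.3 to 448 CPM in Col11a1 cells, from 177 to 544 CPM in Nnat cells and from 121 to 400.2 CPM in cells with neither. At 1000 UMIs per cell, 9.50% and 32.7% of the cells held a UMI, against 0.305% and 0.421% of rods.

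Other genes higher in Ptbp1-KO rested on fewer UMIs. Il1rapl2, a member of the interleukin-1 receptor family, had 14 and 63 UMIs in 10 and 20 cells (23.2 and 106 CPM, log2 ratio 2.19, 1.34 to 3.14), with 13 of the Ptbp1-KO UMIs in 1 cell. Thinning to 1000 UMIs per cell brought it to 1.01. Clusters 12, 19 and 20 held between 2022 and 4243 CPM of Il1rapl2, so the level in cluster 18 was small beside theirs. Zfpm2, a transcriptional cofactor, went from 33 to 90 UMIs (1.47, 0.88 to 2.09) and Synpr, the synaptic vesicle protein synaptoporin, from 19 to 60 UMIs (1.68, 0.91 to 2.51). Zfp365 went from 28 to 86 UMIs (1.64) and was higher in the other BC too, by 0.83. Over all settings the ratio ranged from 1.49 to 2.75 for Zfp365, from 1.36 to 2.32 for Zfpm2 and from 1.18 to 2.60 for Gm12709. The others of the 10 highest were Cbll1, a ubiquitin ligase, and the uncharacterized Gm32585, Gm12709 and Gm48693. The last of these had a ratio of 2.10 in the other BC beside 2.01 in cluster 18. The further genes at least 2-fold higher were Txn2 (mitochondrial thioredoxin, 38 and 89 UMIs, 1.248 beside -0.04 in the other BC), Chrna7 (the alpha7 nicotinic receptor, 23 and 53 UMIs, 1.22 beside 0.20), L3mbtl4, Nxn, Nop58, Abhd14b, Gm2087, Dpp10 and Cdon. L3mbtl4 and Abhd14b were higher in the other BC as well, by 1.93 and 1.37.

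**Figure D4:**
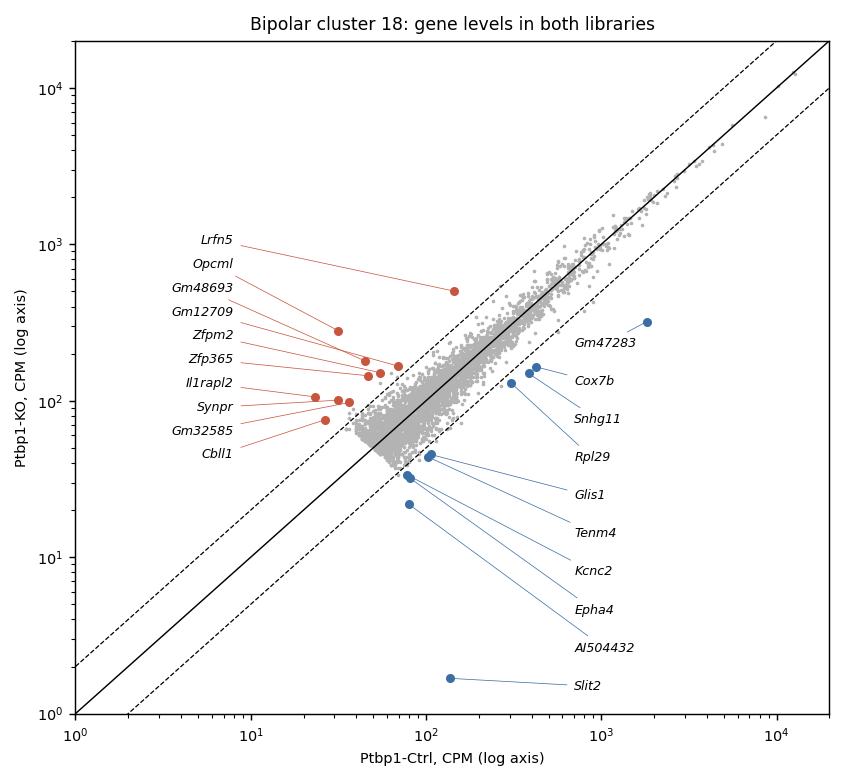
Each grey point is 1 of the 4159 genes compared in cluster 18, placed by its CPM in Ptbp1-Ctrl (horizontal, log axis) and Ptbp1-KO (vertical, log axis). The solid line marks equal levels and the dashed lines 2-fold, and the 10 genes with the highest (red) and the 10 with the lowest (blue) ratio are named, with Opcml at 31.5 and 281 CPM and Slit2 at 137 and 1.68 CPM.

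Among the genes lower in Ptbp1-KO, the lowest ratio belonged to Slit2, a secreted axon guidance ligand, but it rested on few cells. Its 83 Ptbp1-Ctrl UMIs lay in 9 cells, 39 of them in 1 cell, and Ptbp1-KO had 1 UMI (137 and 1.68 CPM). The log2 ratio was -6.35 (-11.68 to -3.84). Without the cell with most UMIs in each library, and at 1000 UMIs per cell, no Ptbp1-KO UMI was left. The values there, -3.85 and -2.48, are bounds set by the floor of 3 counts. Cluster 9 held 5900 and 6199 CPM of Slit2. Of the 9 Ptbp1-Ctrl cells with Slit2, 1 also held a UMI of Neto1 or Erbb4, both higher in cluster 9, against 36 of the 203 cells without Slit2. The only Ptbp1-KO cell with Slit2 held one too, against 43 of the 161 without. Of the same 9 and 203 Ptbp1-Ctrl cells, 2 and 31 had a doublet score above the 90th percentile.

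Ctnna3 and Lrp1b were lower in Ptbp1-KO with many more UMIs behind them; both were chosen after their values were seen, from the 40 genes past 2-fold. Ctnna3, one of the leading genes, went from 478 UMIs in 167 cells (792 CPM) to 222 UMIs in 106 cells (373 CPM), a log2 ratio of -1.09 (-1.32 to -0.85). In the other BC it went from 41.2 to 23.1 CPM (-0.83). Lrrtm3, itself a leading gene, lies on the opposite strand within Ctnna3 (chromosome 10, 63928472 to 64090277 within 63430098 to 65003667) and was at -0.63 (-0.84 to -0.43), and whether the counting used strand is not given in the sources used here. Lrp1b, a large receptor of the low-density lipoprotein receptor family, went from 539 UMIs in 137 cells (893 CPM) to 254 UMIs in 68 cells (427 CPM), a ratio of -1.07 (-1.29 to -0.85), against -0.28 in the other BC. In cluster 11, which held more Lrp1b, the level went from 1781 to 2077 CPM. Both genes were lower in each class of cells, Ctnna3 from 725 to 448, from 734 to 372 and from 962 to 337 CPM, and Lrp1b from 826 to 493, from 963 to 359 and from 797 to 604 CPM in Col11a1 cells, Nnat cells and cells with neither.

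**Figure D5:**
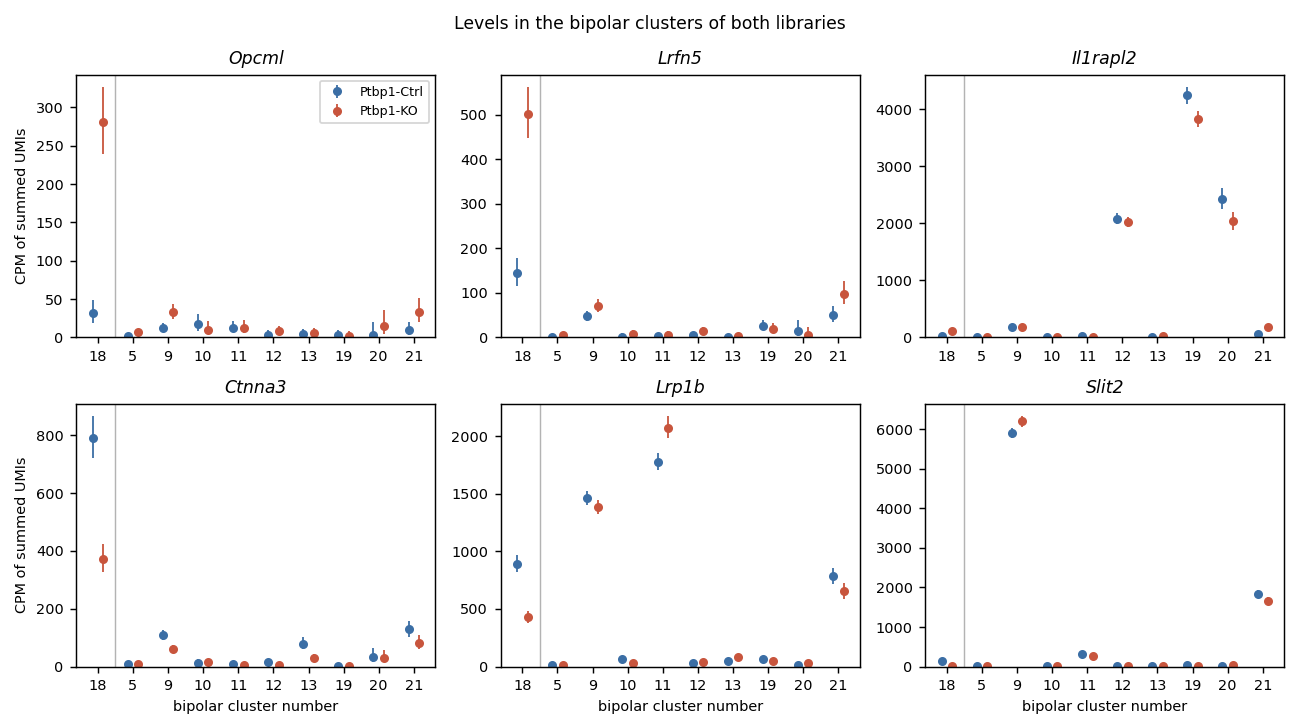
CPM of 6 genes (vertical axes, each starting at 0) in cluster 18 and the 9 other BC clusters (horizontal axes) of Ptbp1-Ctrl (blue) and Ptbp1-KO (red), with exact Poisson 95% intervals. Opcml and Lrfn5 are highest in cluster 18 of Ptbp1-KO (281 and 502 CPM), Ctnna3 is highest in cluster 18 in both libraries, and Il1rapl2, Slit2 and Lrp1b are higher in other clusters.

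Tenm4 and Zfhx3, both rich in the Col11a1 cells, were lower in Ptbp1-KO, where fewer cells held Col11a1. Tenm4 had 62 and 26 UMIs (103 and 43.7 CPM, log2 ratio -1.23, -1.95 to -0.55), and -1.38 with the Col11a1 cells left out. Over all settings its ratio ranged from -1.99 to -0.98. Zfhx3 had 161 and 74 UMIs (267 and 124 CPM, -1.10), and -0.89 with the Col11a1 cells left out, which is no longer past 2-fold. Within the Col11a1 cells Tenm4 was at 261 and 194 CPM and Zfhx3 at 784 and 508 CPM. In cells with neither UMI, Tenm4 was at 153 and 54.9 CPM and Zfhx3 at 268 and 220 CPM, above the Nnat cells. Leaving out the cells with a Col11a1 UMI therefore need not take out every cell rich in these genes. What part the makeup of the cluster has in these values was not tested beyond this.

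Several of the lowest genes were low in Ptbp1-KO across BC. Gm47283 had 1099 and 191 UMIs (1820.3 and 321 CPM, -2.50), and in the other BC 1434 and 260 CPM (-2.46). The annotation places Gm47283 on chromosome Y, whereas the study used female mice, and whether reads of a similar sequence elsewhere were counted for it was not tested. Cox7b, a subunit of cytochrome c oxidase, was at -1.36 and -1.20 in cluster 18 and the other BC, Snhg11, a long noncoding RNA, at -1.36 and -1.27, and Rpl29, a ribosomal protein, at -1.24 and -1.02. Epha4, an ephrin receptor, had 49 and 19 UMIs (-1.35, -2.19 to -0.56) and -0.60 in the other BC. AI504432, Glis1 and Kcnc2, which encodes a Kv3 potassium channel, were the rest of the 10 lowest. Kcnc2 had 47 and 20 UMIs (-1.21, -2.05 to -0.43), beside 0.02 (-0.27 to 0.31) in the other BC. AI504432, a long noncoding RNA, had 48 and 13 UMIs (-1.86, -2.87 to -0.96), beside -0.04 in the other BC. Some of these ratios were under 2-fold in other settings. At 1000 UMIs per cell, Epha4 was at -0.67, Kcnc2 at -0.76 and Glis1 at -0.96, and over the cells with a Nnat UMI Tenm4 was at -0.98 and Cbll1, among the higher genes, at 0.90. The further genes at least 2-fold lower were Nrg3, Npdc1, Ptprj, Mapkap1, Lamtor5, Mcrs1, 2310026I22Rik and 1810026B05Rik, with log2 ratios from -1.12 to -1.01.

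Of the 20 genes leading cluster 18, Ctnna3 alone was past 2-fold between the libraries. Grik1 had a log2 ratio of 0.00 (-0.05 to 0.05), Kcnip4 0.03 (-0.02 to 0.08), Nfib -0.04 (-0.17 to 0.08) and Scgn 0.05 (-0.20 to 0.29). Gria1 was at 0.52 (0.23 to 0.82). Of the 13 function lists, 3 held a gene past 2-fold, beside 0.962% of all genes. These were potassium and HCN channels, with Kcnc2 lower and Dpp10 higher among 13 genes compared, transcription factors, with Zfhx3 lower among 18, and synaptic adhesion and guidance, with Lrfn5 higher and Epha4 and Tenm4 lower among 30. For Dpp10 (160 and 321 UMIs, 1.02), an auxiliary subunit of Kv4 channels, 58 of the Ptbp1-KO UMIs lay in 1 cell, and the ratio was 0.84 without the richest cells. The list medians were -0.08 for potassium channels, 0.08 for transcription factors and -0.08 for adhesion and guidance, beside 0.004 over all genes.

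The remaining lists held no gene past 2-fold in cluster 18, beside 0.962% of all genes, a share at which most short lists would hold none. Among 18 ribbon synapse and release genes the ratios ran from -0.20 to 0.32, with a median of 0.03. The 9 ionotropic glutamate receptor genes had a median of 0.00, the 9 GABA and glycine receptor genes -0.03, the 15 sodium and calcium channel genes 0.01 and the 10 cadherins and protocadherins -0.05. Over 9 mGluR6 cascade genes the median was -0.10, over 8 calcium-binding proteins -0.03 and over 6 modulatory receptors and neuropeptides 0.07. Among 11 PTB proteins and neuronal splicing regulators the median was 0.08 and the range -0.42 (Msi1) to 0.33 (Celf4). The 2 dissociation stress genes with enough UMIs, Btg2 and Jun, were at -0.16 and -0.36. The 7 rod markers had a median of -0.18, from -0.54 to 0.05, and the 5 cone markers compared a median of 0.10.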

How the data were processed

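Retinas of 1 mouse per genotype were profiled with 10x Genomics 3′ version 3.1 chemistry. The authors aligned reads to mm10 with Cell Ranger 7.0.1 and clustered cells in Seurat 4 (submitters' processing notes and methods). The gene annotation and the treatment of intronic reads are not given in the sources used here. The deposited table held UMI counts, not normalized, for 25778 genes in 30943 cells, all of which met the authors' filter (above 200 and below 5000 genes, above 700 and below 10000 UMIs, under 20% mitochondrial). The deposited cell table gave the sample, cluster, cell type and mitochondrial percent. A further 2 columns of per-cell values were not used. Groups followed the genotype labels.

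UMI counts were summed over the cells of cluster 18 in each library and scaled to CPM. Intervals were exact Poisson (levels), exact conditional binomial (ratios) and Clopper-Pearson (shares), at 95%, and their coverage was checked on simulated counts. Differences between 2 ratios have a normal interval from the 4 counts. With 1 library per genotype no test was run, and the study's Wilcoxon test over cells was not used because cells of 1 animal are not replicates. Genes entered a comparison at a mean of at least 50 CPM and at least 50 UMIs, and 2-fold was the size rule. A count of 0 was set to 3 counts for ranking. Shares of cells with a UMI were also taken with each cell thinned to 1000 UMIs.

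Genes named are Ptbp1, Ptbp2, fixed markers, 13 function lists, the 20 highest and 10 lowest against the other BC, the 10 highest and 10 lowest against the most similar cluster and between libraries. The comparison of Col11a1 and Nnat cells and any further gene were chosen after values were seen. Values of some listed genes are not reported here. The cluster and the lists were chosen with earlier results of these data known. Scrublet (in scanpy 1.11.5) called 0 doublets in either library and so did not work as a caller. The cells kept were those deposited, and the rank of the score served for an alternative only. Coordinates are from GENCODE vM21 (GRCm38), matched by symbol for 25157 genes. Python 3.11.15, numpy 2.4.6, scipy 1.17.1, pandas 2.3.3 and, for TMM factors, edgeR 4.0.16 in R 4.3.3 were used.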

Additional observations from a re-analysis of the deposited data

Results flagged for a closer look

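For 4 genes past 2-fold between the libraries in cluster 18, the other BC moved the opposite way with a counting interval that excluded no change. The difference between cluster 18 and the other BC has a counting interval only and was not tested over animals. That interval does not cover a changed mix of clusters within the other BC. Cluster 19, for instance, made up 6.07% and 4.90% of the BC, and the part of this mix was not tested. Il1rapl2 had a log2 ratio of 2.19 (14 and 63 UMIs) in cluster 18 and -0.09 (-0.14 to -0.03) in the other BC. Nrg3, a neuregulin that is a ligand of Erbb4, went from 340 UMIs in 104 cells (563 CPM) to 164 UMIs in 53 cells (276 CPM), a log2 ratio of -1.03 (-1.31 to -0.76), and in the other BC from 446 to 471 CPM (0.08). Npdc1 went from 42 to 20 UMIs (-1.05, -1.90 to -0.25), against 0.26 in the other BC. Ptprj, a receptor tyrosine phosphatase, went from 47 to 23 UMIs (-1.01, -1.80 to -0.26), against 0.34 in the other BC.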

How the results depend on the processing

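No paired analysis was possible because each genotype has 1 library. No gene past 2-fold changed sign under the alternatives. Of the values of single genes and lists under alternatives, 565 stayed within their interval and 124 did not, mostly after thinning to 1000 UMIs per cell (fewer genes pass the filter, 1469 of 4159) or after subtracting the library-wide RNA. The ratio of the cluster's shares lay between 0.864 and 1.06 under all denominators, depth and doublet settings. The numbers of genes past 2-fold between the libraries (19 higher, 21 lower) moved more. They were 2 and 7 at a minimum of 200 CPM, 209 and 170 with no CPM minimum and at least 20 UMIs, 7 and 11 after thinning, 29 and 35 without the highest doublet scores, and 82 and 124 after subtracting library-wide RNA. Giving each cell equal weight made 29 higher. Without Col11a1 cells, an alternative chosen after seeing the data, like the restriction to Nnat cells, the removal of the richest cell per gene and the share without cluster 21, 32 were higher. Against the other BC (154 higher, 199 lower) they were 57 and 69 at 200 CPM, 452 and 642 with no CPM minimum, and 246 higher after subtraction. TMM scaling moved ratios by -0.02 between the libraries and by -0.08 and -0.10 against the other BC. Without the Col11a1 cells, Zfhx3 (-0.89), Npdc1 (-0.92), Mcrs1 (-0.86) and Abhd14b (0.94) were under 2-fold.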
